A study of Mus musculus with 8 samples.

Results

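Transcripts of 8 chaperones that are enriched in male germ cells were followed through the loss of ARID1A. They were measured in fractions collected as mouse pachytene spermatocytes, the cells of the long meiotic stage in which homologous chromosomes are synapsed. The 8 genes, *Hspa2*, *Hspa1l*, *Hspa4l*, *Hsp90aa1*, *Cct6b*, *Clgn*, *Calr3* and *Pdilt*, were taken by symbol from the 21058 genes listed in the deposited tables, whose Entrez identifiers were matched to RefSeq symbols. All 8 were listed, and all 8 passed the filter on low counts. RNA-seq libraries were available from 4 *Arid1a* WT and 4 *Arid1a* cKO samples of adult testes. In the *Arid1a* cKO group both alleles were floxed (Arid1a fl/fl) and a Stra8-Cre transgene (Tg/0) was present, which is active from early postnatal spermatogonia. The *Arid1a* WT males carried the floxed allele (fl/fl or fl/+) without Cre, so the floxed allele was present in both groups and the Cre transgene in the *Arid1a* cKO group only. Excision by this Cre is incomplete in the line. The authors found the unexcised transcript in *Arid1a* cKO pachytene fractions, and pachytene cells both with and without ARID1A by immunofluorescence. *Arid1a* cKO values may therefore mix cells that lost the gene with cells that kept it. Each fraction came from the pooled testes of several males after Sta-Put sedimentation, which separates germ cells by size, and cells were judged by light microscopy. The labels call the 4 libraries of a genotype biological replicates, but the sources used here do not say that each came from its own pool of males, so p-values measure only the spread between these libraries, which may be technical.

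Chaperones bind proteins that are not yet folded and release them in cycles of ATP hydrolysis or sugar and thiol exchange. HSPA2, HSPA1L and HSPA4L belong to the HSP70 and HSP110 families of the cytosol and nucleus, HSP90AA1 is the inducible HSP90 and CCT6B is a testis subunit of the CCT chaperonin ring, which folds actin and tubulin. Calmegin (CLGN) and calsperin (CALR3) are germ-cell chaperones of the endoplasmic reticulum related to calnexin and calreticulin, and PDILT is a related member of the protein disulfide isomerase family. HSPA2 and HSP90AA1 are needed in male meiosis, whereas CLGN, CALR3 and PDILT are needed for ADAM proteins of the sperm surface to mature.

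The 8 libraries held between 15850961 and 22044507 estimated counts. *Arid1a* itself, the gene cut by the Cre, was at 113 ± 13.8 CPM (counts scaled by TMM to a common library total) in *Arid1a* WT and 79.7 ± 2.89 in *Arid1a* cKO (SD, n = 4 each), a log2 fold change of -0.51 (SE 0.07, edgeR adjusted p = 2.31e-05), and the groups did not overlap. The Cre removes only some exons, and the authors detected the shortened transcript in *Arid1a* cKO pachytene cells by RT-PCR. Counts over the whole gene can include this transcript, so they do not measure how completely the gene was lost. The pachytene label was checked against 13 markers, which were all detected. Of these, 4 were higher (2 without TMM and 1 on TPM rescaled over the listed genes) and 8 lower in *Arid1a* cKO (median log2 fold change -0.27), from *Sycp1* at 0.83, *Msh4* at 0.31 and *Tbpl1* at 0.23 to *Tesmin* at -1.88, *Spo11* at -2.68 and *Piwil1* at -3.88, and their summed TPM was 9517 to 10408 in *Arid1a* WT and 7553 to 7608 in *Arid1a* cKO. All 20 spermatid markers were higher in *Arid1a* cKO (median 2.18), and their summed level was 7026 to 7979 TPM (a level per transcript length, scaled to a fixed total) in *Arid1a* WT and 29053 to 30878 TPM in *Arid1a* cKO. All 8 tested Sertoli markers (median -1.51, with *Rhox5* at 0) and 6 of 7 Leydig markers (median -2.94) were lower, with summed levels of 429 to 501 against 123 to 129.9 TPM and of 78.7 to 92.2 against 7.27 to 8.91 TPM. Spermatogonial markers were higher for 8 of 10 (5 on rescaled TPM) and lower for 1 (129.6 to 140.3 against 139 to 149 TPM), and blood cell markers higher for 5 of 7 and lower for 1, at sums of 6.65 to 11.5 TPM. These markers move with the genotype, and their part in the results on the chaperones was not tested except where a value is given.

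Of the 8 chaperones, 4 were higher in the *Arid1a* cKO fractions (*Hspa1l*, *Hspa4l*, *Calr3* and *Pdilt*), 3 were lower (*Hspa2*, *Hsp90aa1* and *Clgn*), and *Cct6b* did not pass the test. The 4 that rose did so by 0.34 to 2.12 and the 3 that fell by 0.27 to 0.75 on the log2 scale. In the same edgeR test 74.0% of the 17643 genes passed an adjusted p of 0.05, with 36.5% of all genes called higher and 37.5% called lower, so that most genes of any list pass. Expression of the groups did not overlap for 7 of the 8, against 68.9% of all genes. The median log2 fold change was 0.16 over the 8 chaperones and -0.02 over all genes. A called rise of at least 2 on the log2 scale, which *Hspa1l*, *Calr3* and *Pdilt* showed, was found for 8.82% of all genes. On TPM rescaled over the listed genes the share of calls that were higher was 38.9%, against 49.3% in the main test. The plot of CPM by library shows the values one gene at a time.

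**Figure D1:**
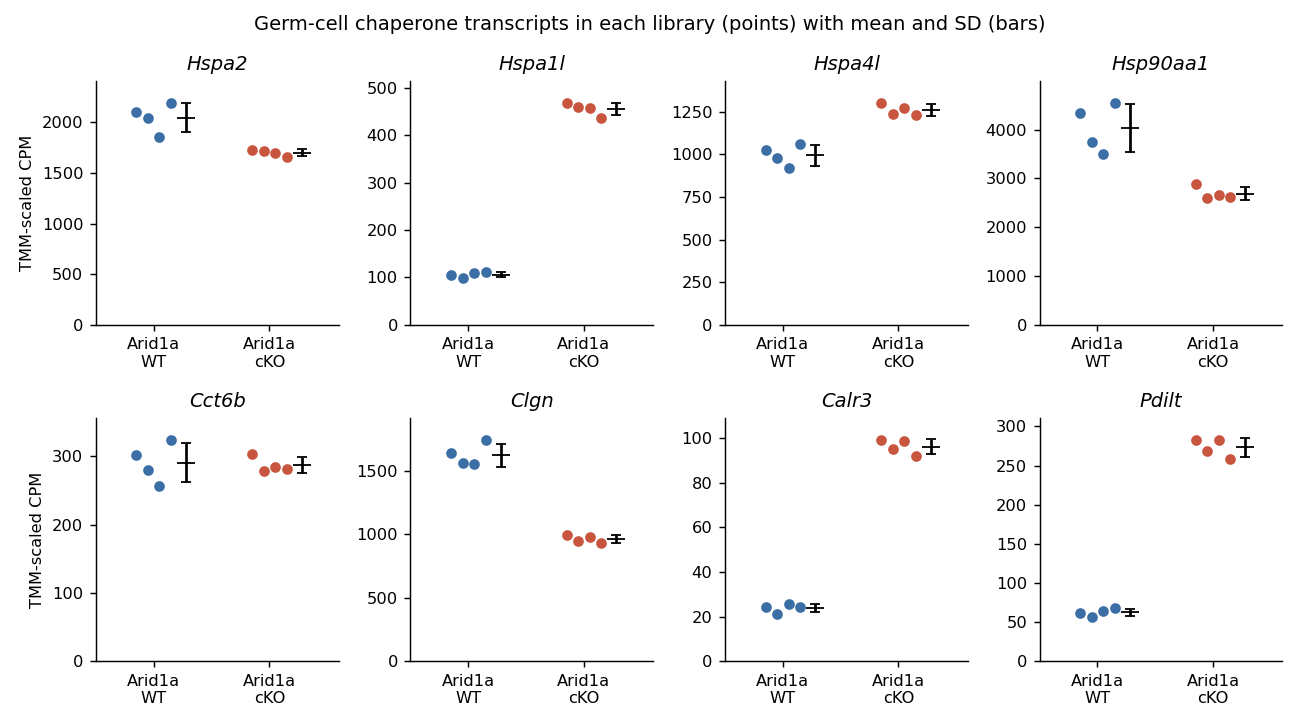
CPM (TMM-scaled, linear axis from 0) of the 8 chaperones, 1 panel each, in the 4 *Arid1a* WT (blue) and 4 *Arid1a* cKO (red) libraries, with the mean and SD beside the points. *Hspa1l*, *Calr3* and *Pdilt* lie at about 4 times their *Arid1a* WT level, and only the *Cct6b* points of the groups overlap.

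HSPA2 is the HSP70 of meiotic and later male germ cells, and *Hspa2* (chr12:76403812-76406938, forward strand, GRCm38) was among the most abundant transcripts of the fraction. Its CPM in *Arid1a* WT libraries 1 to 4 was 2103, 2046, 1856 and 2191, and in *Arid1a* cKO libraries 1 to 4 it was 1730.4, 1721, 1696 and 1658. Every *Arid1a* cKO library was below every *Arid1a* WT library, although the lowest *Arid1a* WT library lay close to them. The mean fell from 2049 ± 142 to 1702 ± 32.2 (SD, n = 4 each), a log2 fold change of -0.27 (SE 0.06, edgeR adjusted p = 7.25e-04), or 1.20-fold. As in all results from whole fractions, fewer cells of a type and less RNA per cell cannot be told apart. The log2 fold change was -0.41 in limma on log2(TPM + 1) and -0.56 when TPM was rescaled over the listed genes.

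*Hspa1l* (chr17:34972703-34979228, forward strand), which encodes an HSP70 found mainly in haploid germ cells, rose 4.30-fold. Its CPM was 105, 98.4, 109.7 and 111 in the *Arid1a* WT libraries and 467, 459, 458 and 436 in the *Arid1a* cKO libraries. The spread within a group was small against the gap between them, at 5.64 (SD) around a mean of 106 in *Arid1a* WT and 13.5 around 455 in *Arid1a* cKO. The log2 fold change was 2.10 (SE 0.05, edgeR adjusted p = 1e-13). *Hspa1l* shares 14.6% of its 31-base words with *Hspa1a* on the same strand, and 71.7% with the antisense gene *Gm10501*, which lies opposite its exons and is not listed in the tables. Whether strand was used in quantification is not given in the sources used here.

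*Hspa4l* (chr3:40744500-40796103, forward strand) encodes a large HSP110-type partner of HSP70 that exchanges its nucleotide. Its CPM was 1027, 977, 920.3 and 1062 in *Arid1a* WT and 1301, 1237, 1275 and 1229 in *Arid1a* cKO, without overlap. The mean rose from 997 ± 61.6 to 1260.5 ± 33.7, a log2 fold change of 0.34 (SE 0.05, edgeR adjusted p = 6.06e-05). Per transcript length the difference was larger, at 599 ± 23.1 TPM in *Arid1a* WT and 909.8 ± 21.4 in *Arid1a* cKO, and with the transcript lengths as an offset in edgeR the log2 fold change was 0.70. Counts per TPM, looked at after seeing the data, which scale with the mean transcript length used in quantification, differed by -0.35 (log2, relative to the median gene) for *Hspa4l*, and no *Arid1a* cKO library overlapped an *Arid1a* WT library. A shift at least as large in either direction was found for 9.35% of 16529 genes. Among the other 7 chaperones this shift lay between -0.07 (*Clgn*) and 0.06. Shifts at least as large as theirs were found for 47.4% (*Clgn*) to 99.6% (*Hsp90aa1*) of genes. Library size without TMM gave *Hspa4l* a log2 fold change of 0.24.

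**Figure D2:**
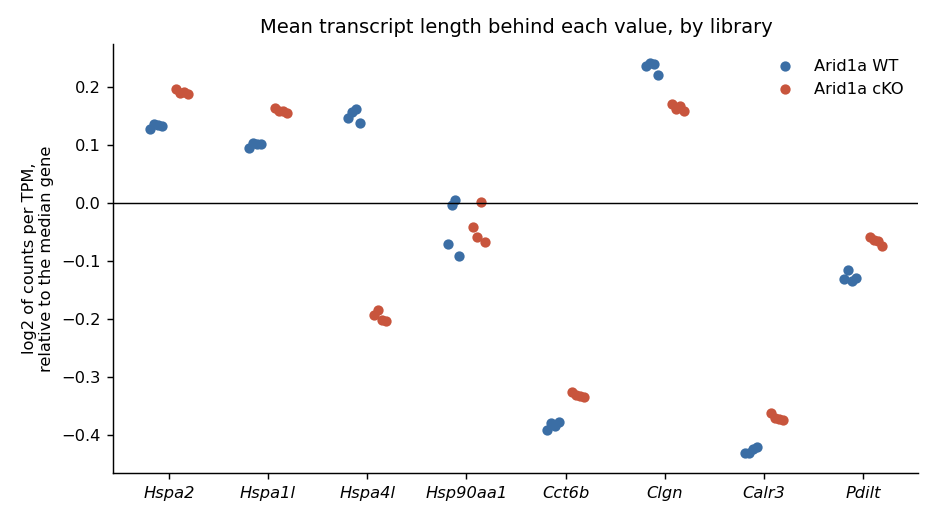
Log2 of estimated counts per TPM relative to the median gene of the same library (y axis), a measure of the mean transcript length behind each value, for the 8 chaperones in *Arid1a* WT (blue) and *Arid1a* cKO (red) libraries. *Hspa4l* moves from a mean of 0.15 to -0.20, whereas *Hspa2*, *Hspa1l*, *Cct6b*, *Calr3* and *Pdilt* shift by 0.05 to 0.06. Shifts of that size were found for at least 51.7% of genes (the share for *Pdilt*). *Hspa1l* has 1 annotated transcript, so such a shift need not be a change in transcript length.

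*Hsp90aa1* (chr12:110691036-110696395, reverse strand) encodes HSP90 alpha, which completes the folding of kinases and other regulators. Its CPM was 4348, 3737, 3496 and 4541 in the *Arid1a* WT libraries and 2877, 2606, 2655 and 2612 in the *Arid1a* cKO libraries. The *Arid1a* WT libraries differed among themselves more than for any other of the 8, with a coefficient of variation of 12.3%, yet all lay above the *Arid1a* cKO libraries. The mean fell from 4031 ± 494 to 2688 ± 128, a log2 fold change of -0.58 (SE 0.08, edgeR adjusted p = 1.09e-05). Annotated transcripts of other genes, mostly of the pseudogene *Gm12346*, hold 51.5% of its 31-base words, but genes listed in the tables hold 0.201%.

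*Cct6b* (chr11:82713112-82764388, reverse strand) was the only one of the 8 that did not pass the test. Its CPM was 302, 281, 257 and 324 in *Arid1a* WT and 304, 278, 285 and 282 in *Arid1a* cKO, so that every *Arid1a* cKO library lay within the *Arid1a* WT range. The means were 291 ± 28.9 and 287 ± 11.6, and the log2 fold change was -0.02 with a 1.96 SE interval of -0.15 to 0.11 (edgeR adjusted p = 0.815). The sign depended on the scaling. *Cct6b* was called lower at -0.11 (adjusted p = 0.0431) without TMM, where the median gene was at -0.12, and at -0.15 (adjusted p = 0.0242) in limma on log2(TPM + 1).

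In the endoplasmic reticulum, calmegin went down and its companions went up. *Clgn* (chr8:83389790-83428552, forward strand) was at 1638, 1557, 1551 and 1742 CPM in *Arid1a* WT and at 997, 943, 975 and 932 CPM in *Arid1a* cKO. The groups were far apart, and the mean fell 1.69-fold from 1622 ± 89.3 to 962 ± 30.0, a log2 fold change of -0.75 (SE 0.05, edgeR adjusted p = 1.01e-08). This was the largest fall among the 8. No 31-base word of *Clgn* occurs in another annotated gene.

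*Calr3* (chr8:72424176-72443819, reverse strand) was the least abundant of the 8. Its CPM was 24.5, 21.3, 25.7 and 24.3 in *Arid1a* WT and 99.2, 95.0, 98.7 and 91.8 in *Arid1a* cKO, behind which stood at least 465 counts in a library. The mean rose 4.02-fold from 23.9 ± 1.90 to 96.2 ± 3.44, a log2 fold change of 2.01 (SE 0.06, edgeR adjusted p = 6.09e-13).

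*Pdilt* (chr7:119486586-119529036, reverse strand), whose product works with calsperin, was at 62.0, 56.5, 64.6 and 67.7 CPM in *Arid1a* WT and at 283, 269, 282 and 259 CPM in *Arid1a* cKO. The mean rose 4.36-fold from 62.7 ± 4.76 to 273 ± 11.6, a log2 fold change of 2.12 (SE 0.06, edgeR adjusted p = 3.17e-13). *Calr3* and *Pdilt* thus moved opposite to *Clgn*. Of the words of *Pdilt*, 9.97% occur in annotated genes on the opposite strand, and 3.56% in *Acsm5*, which is listed.

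Within a group, the chaperones tended to be high or low in the same libraries. The share of all genes that were highest or lowest in these libraries is not given here, so this may not be particular to the chaperones. *Arid1a* WT library 4 held the highest CPM of its group for 7 of the 8 chaperones and *Arid1a* WT library 3 the lowest for 5, and these libraries were also the least alike over all genes (chi-square of 19.1 per degree of freedom, against 1.74 to 3.59 between *Arid1a* cKO libraries). *Arid1a* cKO library 1 was highest in its group for all 8 chaperones and library 4 lowest for 6. The coefficient of variation was larger in *Arid1a* WT for all 8 chaperones, as it was for 67.6% of all genes. With any single library left out, 4 chaperones were still called higher and 3 lower.

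Promoter windows of RefSeq (GRCm38.p6, 250 bases before to 50 after a start site) were matched by gene identifier for 6 of the 8 chaperones, with 7 windows because *Calr3* has 2 start sites. *Hsp90aa1* and *Clgn* were not matched. The start site used is not always the outermost one. The windows of *Hspa2*, *Hspa4l* and *Pdilt* and the more downstream *Calr3* window lie wholly within the RefSeq span of the gene. The windows of the 3 genes that rose about 4-fold are shown, with that of *Hspa2*, which fell, for contrast. Capitals mark the core of the cAMP response element bound by CREM and CREB (TGACG, which reads CGTCA where it lies on the other strand), the CCAAT box (or ATTGG on the other strand) and the core bound by RFX factors (GTTGCC on either strand).
Hspa1l, chr17:34972453-34972752, forward strand: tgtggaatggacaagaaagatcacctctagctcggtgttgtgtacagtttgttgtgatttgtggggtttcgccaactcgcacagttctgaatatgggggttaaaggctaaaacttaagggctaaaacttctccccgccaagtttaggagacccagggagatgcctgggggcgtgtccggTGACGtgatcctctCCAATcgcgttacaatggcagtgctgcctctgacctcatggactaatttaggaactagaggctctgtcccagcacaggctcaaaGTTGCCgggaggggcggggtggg
Calr3, first start site, chr8:72443729-72444028, reverse strand: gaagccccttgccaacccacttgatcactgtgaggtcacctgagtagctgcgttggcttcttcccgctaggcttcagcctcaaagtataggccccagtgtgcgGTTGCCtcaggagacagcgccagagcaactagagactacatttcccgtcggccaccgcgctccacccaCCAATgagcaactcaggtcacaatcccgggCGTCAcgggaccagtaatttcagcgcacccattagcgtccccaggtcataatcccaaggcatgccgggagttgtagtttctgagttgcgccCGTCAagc
Pdilt, chr7:119523433-119523732, reverse strand: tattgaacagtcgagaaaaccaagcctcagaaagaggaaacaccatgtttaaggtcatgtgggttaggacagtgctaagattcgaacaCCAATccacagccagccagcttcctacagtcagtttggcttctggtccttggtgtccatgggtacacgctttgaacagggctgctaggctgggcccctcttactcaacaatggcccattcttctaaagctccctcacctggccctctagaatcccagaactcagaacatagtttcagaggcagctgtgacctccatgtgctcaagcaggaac
Hspa2, chr12:76404120-76404419, forward strand: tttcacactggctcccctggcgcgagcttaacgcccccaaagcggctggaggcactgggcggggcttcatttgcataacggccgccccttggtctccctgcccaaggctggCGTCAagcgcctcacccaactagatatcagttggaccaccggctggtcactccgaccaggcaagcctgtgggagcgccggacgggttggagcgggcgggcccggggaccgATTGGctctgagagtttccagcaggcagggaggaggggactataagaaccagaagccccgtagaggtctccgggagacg

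Of the 7 windows, none held a heat shock element (GAANNTTC or TTCNNGAA, found in 15.1% of 32851 mouse windows of this length), the full cAMP response element TGACGTCA (1.79%) or TATAAA (13.6%). TGACG on either strand, which every full TGACGTCA also contains, was present in 5 of the 7 windows against 20.8% of all windows, CCAAT in 6 of 7 against 37.4%, and GTTGCC in 3 of 7 against 12.5%. Windows of 5 of the widely expressed relatives (*Hspa4*, *Cct6a*, *Canx*, *Calr* and *P4hb*) held TGACG in 4 of 5, CCAAT in 4 of 5, GTTGCC in 0 of 5, a heat shock element in 1 of 5, TATAAA in 1 of 5 and the full TGACGTCA in 0 of 5. In *Hspa1l*, TGACG began 71 and CCAAT 57 bases before the start site, and GTTGCC began at base 28 after it. In the *Calr3* window shown, GTTGCC began at -147, CCAAT at -79 and CGTCA at -49 and 43. The *Pdilt* window held only CCAAT, at -162, and that of *Hspa2*, which fell, held CGTCA at -139 and ATTGG at -29. GTTGCC was matched in windows of *Hspa1l* and *Calr3* and in no other of these 7 windows. These matches describe the windows and not the binding of a factor.

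Levels were compared between genes in TPM, which are per transcript length. In *Arid1a* WT the order was *Hsp90aa1* (2766 ± 332 TPM, rank 5 of 21058 listed genes), *Hspa2* (1246 ± 53.9, rank 44), *Clgn* (920.1 ± 35.5, rank 78), *Hspa4l* (599 ± 23.1, rank 166), *Cct6b* (252 ± 16.9), *Hspa1l* (66.0 ± 3.92), *Pdilt* (45.7 ± 3.52) and *Calr3* (21.5 ± 1.82), and no neighbours in this order overlapped. In *Arid1a* cKO the order became *Hsp90aa1* (1743 ± 67.9, rank 24), *Hspa2* (939.7 ± 15.4, rank 92), *Hspa4l* (909.8 ± 21.4, rank 97), *Clgn* (541 ± 13.2, rank 237), *Hspa1l* (257 ± 6.76, rank 788), *Cct6b* (228 ± 6.78), *Pdilt* (180.2 ± 6.93) and *Calr3* (78.3 ± 2.60). *Hspa4l* passed *Clgn*, and *Hspa1l* passed *Cct6b*, while the libraries of *Hspa2* (919 to 955) and *Hspa4l* (891 to 932) overlapped in *Arid1a* cKO. *Hsp90aa1* and *Hspa2* together made up 65.9% to 69.0% of the summed TPM of the 8 in *Arid1a* WT and 54.0% to 55.4% in *Arid1a* cKO, and that sum lay between 5458 and 6455 TPM in *Arid1a* WT and between 4781 and 5018 in *Arid1a* cKO. The TPM of the listed genes summed to 780735 to 811443 in *Arid1a* WT and 880901 to 886412 in *Arid1a* cKO, so a TPM value does not have quite the same base in both groups.

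To see whether the germ-cell chaperones moved with their families, each was set against 1 widely expressed chaperone of the same kind, *Hspa8* serving both *Hspa2* and *Hspa1l*. None of these 7 relatives was called higher in the main test. The stress-inducible *Hspa1a* and *Hspa1b*, near-identical copies whose reads quantification could split, were not among them. *Hspa1b* rose by 1.12 (edgeR adjusted p = 6.13e-08), and *Hspa1a* was at -0.36 (adjusted p = 0.0855). *Canx*, the calnexin gene, fell by 1.23 (edgeR adjusted p = 1.03e-11), *Calr*, the calreticulin gene, by 0.39 (adjusted p = 3.77e-05), *Hspa8*, the constitutive HSP70, by 0.32 (adjusted p = 1.50e-04), *P4hb*, the classical disulfide isomerase, by 0.23 (adjusted p = 0.00372) and *Cct6a* by 0.21 (adjusted p = 0.0151), all in log2. *Hspa4* at -0.14 (adjusted p = 0.0721) and *Hsp90ab1*, the constitutive HSP90, at -0.07 (adjusted p = 0.313) did not pass, but were called lower at -0.24 and -0.17 without TMM and at -0.20 and -0.21 in limma on log2(TPM + 1), and *Hspa4* also at -0.21 without *Arid1a* WT library 3. *Cct6a* was called higher, at 0.12 (adjusted p = 0.0366), with length offsets, and did not pass without *Arid1a* WT library 1 (-0.17) or 4 (-0.14).

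**Figure D3:**
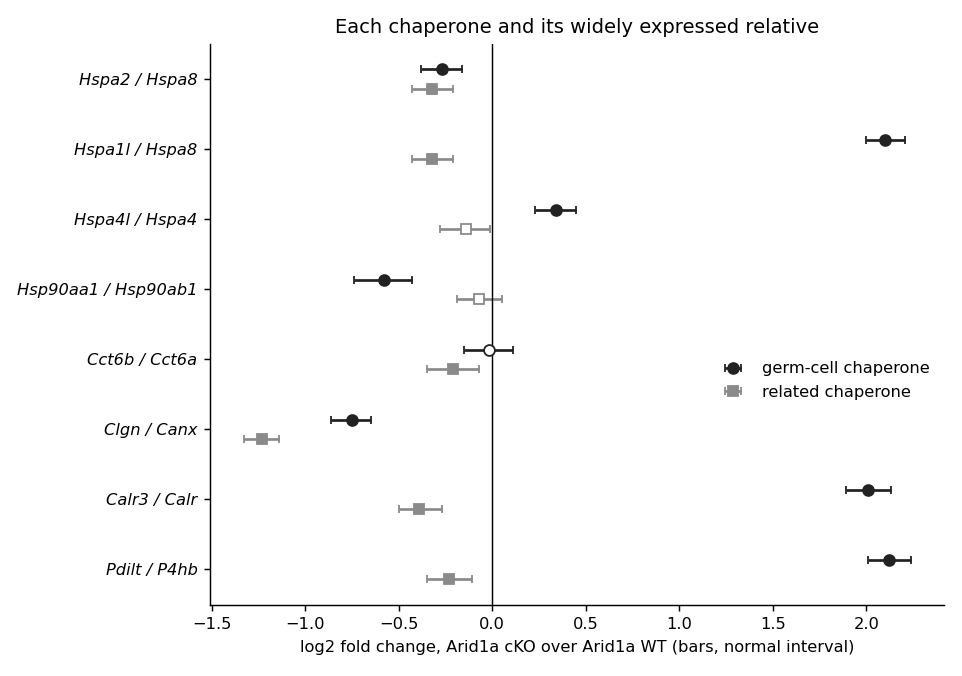
Log2 fold change, *Arid1a* cKO over *Arid1a* WT (x axis), of each germ-cell chaperone (black circles) and its widely expressed relative (grey squares), with bars of 1.96 SE on either side from the edgeR fit on 4 against 4 libraries. Open symbols did not pass an adjusted p of 0.05 (*Cct6b*, *Hspa4* and *Hsp90ab1*).

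The log2 ratio of TPM between a chaperone and its relative, taken within each library, changed in 6 of the 8 pairs (two-sided exact permutation test over 70 assignments of the libraries, p = 0.0286, the smallest this design can give, adjusted p = 0.0381 over the 8 pairs). *Hspa1l* went from 0.583 times the level of *Hspa8* to 3.09 times (log2 ratio -0.78 ± 0.09 and 1.63 ± 0.02, SD, n = 4 each). *Pdilt* went from 0.757 to 3.72 times *P4hb* (-0.40 ± 0.19 and 1.90 ± 0.08), so both germ-cell genes were below their relative in every *Arid1a* WT library and above it in every *Arid1a* cKO library. *Calr3* remained below *Calr*, at 0.0367 and 0.190 times its level (-4.77 ± 0.18 and -2.39 ± 0.05). *Hspa4l* went from 2.41 to 4.21 times *Hspa4* (1.27 ± 0.06 and 2.07 ± 0.05), a difference of 0.80 in log2 on TPM that was 0.48 on CPM (exact permutation p = 0.0286 for both). *Clgn* also rose relative to *Canx*, from 4.17 to 5.69 times (2.06 ± 0.03 and 2.51 ± 0.04), since *Canx* fell further than *Clgn* did. *Hsp90aa1* fell from 13.9 to 10.2 times *Hsp90ab1* (3.79 ± 0.11 and 3.34 ± 0.04). *Hspa2* stood at 11.0 and 11.3 times *Hspa8* (3.46 ± 0.06 and 3.50 ± 0.04), a difference of 0.04 that did not pass (exact permutation p = 0.343). The ratio of *Cct6b* to *Cct6a* was 0.17 lower in log2 (exact permutation p = 0.0857) on TPM and 0.19 higher on CPM (exact permutation p = 0.0286), so its direction depended on the scale. Counts per TPM, relative to the median gene, differed between genotypes by -0.31 in log2 for *Cct6a* and by 0.05 for *Cct6b*.

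**Figure D4:**
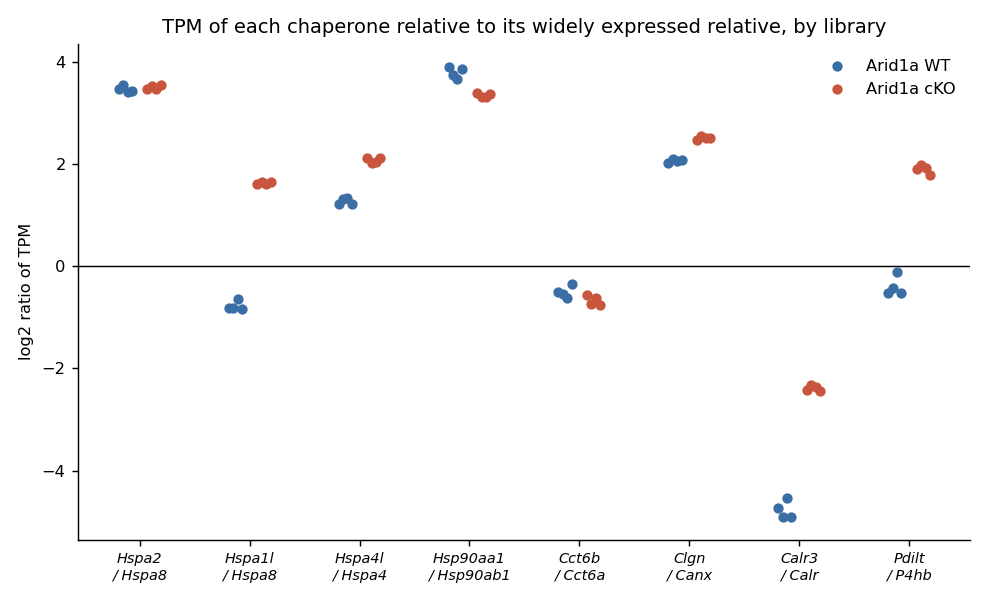
Log2 ratio of the TPM of each germ-cell chaperone to that of its widely expressed relative (y axis), each point 1 library of *Arid1a* WT (blue) or *Arid1a* cKO (red). The *Hspa1l* and *Pdilt* ratios cross 0, from means of -0.78 and -0.40 to 1.63 and 1.90, while the *Hspa2* points overlap.

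The log2 fold changes of *Hspa1l*, *Calr3* and *Pdilt* fell inside the range of the 20 spermatid markers, which ran from 1.79 to 2.39. Per library, the geometric mean of these markers was between 78.2 and 85.7 CPM in *Arid1a* WT and between 371 and 385 CPM in *Arid1a* cKO. Measured against this mean, an alternative chosen after seeing the data, *Hspa1l* stood at 1.28 times the markers in *Arid1a* WT and 1.21 times in *Arid1a* cKO, a difference of -0.08 in log2 (exact permutation p = 0.0286, adjusted over the 8 chaperones p = 0.0327). *Calr3* differed by -0.17 (exact permutation p = 0.0286) and *Pdilt* by -0.06 (exact permutation p = 0.171). In log2, these 3 genes were thus 2.01 to 2.12 higher on the scale of all genes and between -0.17 and -0.06 on the scale of the spermatid markers. The other 5 chaperones differed from the markers by -1.84 (*Hspa4l*) to -2.94 (*Clgn*). The log2 fold changes of the 20 markers had an SD of 0.15, a spread that the exact p-values here do not include. Whether spermatid RNA contributed to the rise of *Hspa1l*, *Calr3* and *Pdilt* was not tested beyond these values.

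In the HSP70 and HSP110 list, 3 of 6 were lower and 1 was higher (median log2 fold change -0.34, against -0.02 over all genes; 5 lower without TMM), with *Hspa14* at -0.96, *Hsph1* at -0.65 and the inducible *Hspa1b* at 1.12. Of 18 genes for HSP90 and its cochaperones, 10 were lower and 4 higher (median -0.16). *Tomm34*, which links HSP70 and HSP90, fell by 2.36, *Ahsa2*, an activator of the HSP90 ATPase, by 1.74 and *Chordc1* by 0.86, whereas *Unc45a* at 0.77, *Sugt1* at 0.65 and *Stip1*, the HSP70 to HSP90 adaptor, at 0.41 rose. Of 14 genes for CCT and prefoldin, which feeds the ring with nascent chains, 5 were lower and 2 higher (median -0.08), the lower share being near that of all genes. The number lower was 3 without *Arid1a* WT library 1 or 4, 9 without TMM and 12 on TPM rescaled over the listed genes. The prefoldin genes *Pfdn2* and *Pfdn4* were at -1.21 and -1.06 and *Vbp1* at 1.82, and among CCT genes *Cct8* was at -0.52 and *Cct2* at 0.63. *Cct6b*, at -0.02, lay beside the median of this list.

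Among genes for partners that drive the HSP70 cycle, calls were more often higher than lower in both lists in the main test. Of 7 BAG-type and other nucleotide exchange factors, 5 were higher and 1 lower (median 0.39), against 3 higher and 2 lower on TPM rescaled over the listed genes and 2 lower without TMM, led by *Bag5* at 1.11, *Bag4* at 0.64 and *Bag1* at 0.39, with *Bag2* at -1.01. Of 15 HSP40 genes, whose J domains stimulate the HSP70 ATPase, 10 were higher and 2 lower (median 1.03). *Dnajc5b* rose by 2.35, *Dnaja4* by 2.21 and *Dnajb7* by 2.04, and *Dnaja2* fell by 0.24. *Dnajb2* was at -0.14 (edgeR adjusted p = 0.0343), but its call was lost in DESeq2, with DESeq2 size factors, with filterByExpr, with length offsets (-0.05) and without *Arid1a* WT library 2 or 4 or any single *Arid1a* cKO library (-0.14 to -0.09). The number of HSP40 genes called lower ran from 1 in those fits to 5 in limma on log2(TPM + 1). Of 17 genes for proteins tied to HSPA2 in spermatogenic cells (cyclin-dependent kinase 1, synaptonemal complex, transition proteins and others), 10 were higher and 6 lower (median 0.39). *Spam1*, a sperm hyaluronidase, rose by 2.60 and the transition protein genes *Tnp1* and *Tnp2*, which are also among the spermatid markers, by 2.23 and 2.16. *Sycp2*, a part of the synaptonemal complex axis, fell by 1.66, *Shcbp1l* by 1.39 and *Cdk1* by 0.98.

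Chaperones of the endoplasmic reticulum outside the 8 were mostly lower, as *Clgn* was. Of 21 genes, 16 were lower and 3 higher, or 1 higher on TPM rescaled over the listed genes (median -0.74), and their summed level was 4582 to 4929 TPM in *Arid1a* WT and 2589 to 2691 TPM in *Arid1a* cKO. *Hyou1*, an HSP110-type chaperone of the reticulum, fell by 2.56, *Sdf2l1* by 2.21 and *Dnajc3*, a J-domain cochaperone of BiP, by 1.61. *Dnajb9* at 0.36, *Manf* at 0.27 and *Tmx1* at 0.18 were called higher, but each call depended on the scaling. On TPM rescaled over the listed genes *Dnajb9* was at 0.04 (adjusted p = 0.466) and *Manf* at -0.10, *Manf* was at 0.06 in limma on log2(TPM + 1), and *Tmx1* was at 0.08 (adjusted p = 0.228) without TMM. *Calr3* and *Pdilt* differed from this list in direction.

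Sperm surface proteins that depend on CLGN, CALR3 or PDILT, and proteins of the same ADAM3 pathway, were split. Of 15 genes, 9 were higher and 5 lower (median 0.46). *Adam3*, the ADAM on which the pathway converges, rose by 0.46. *Adam5* was at 0.24 (edgeR adjusted p = 0.0258), but was at -0.05 on TPM rescaled over the listed genes and did not pass without TMM (0.14), in limma on log2(TPM + 1) (0.10), with length offsets (0.19), without *Arid1a* WT library 2 (0.21) or without *Arid1a* cKO library 1 (0.19). *Adam1a*, a fertilin subunit of the reticulum, rose by 2.43, *Pmis2* by 2.24, *Adam4* by 2.06, *Prss37* by 2.01, *Ace* by 1.99, and the near-identical *Adam6a* and *Adam6b*, whose reads may be shared, by 1.93 and 1.97. *Adam2*, the fertilin partner, fell by 1.01, *Tex101* by 1.48, *Ly6k* by 0.72 and *Rnase10* by 0.62. *Adam1b* was at -0.16 (edgeR adjusted p = 0.0187), but did not pass in DESeq2 or with DESeq2 size factors (-0.13 in both), nor without *Arid1a* WT library 4 (-0.10) or *Arid1a* cKO library 2 (-0.14) or 4 (-0.15). *Tpst2*, at 0.16, did not pass (edgeR adjusted p = 0.763).

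**Figure D5:**
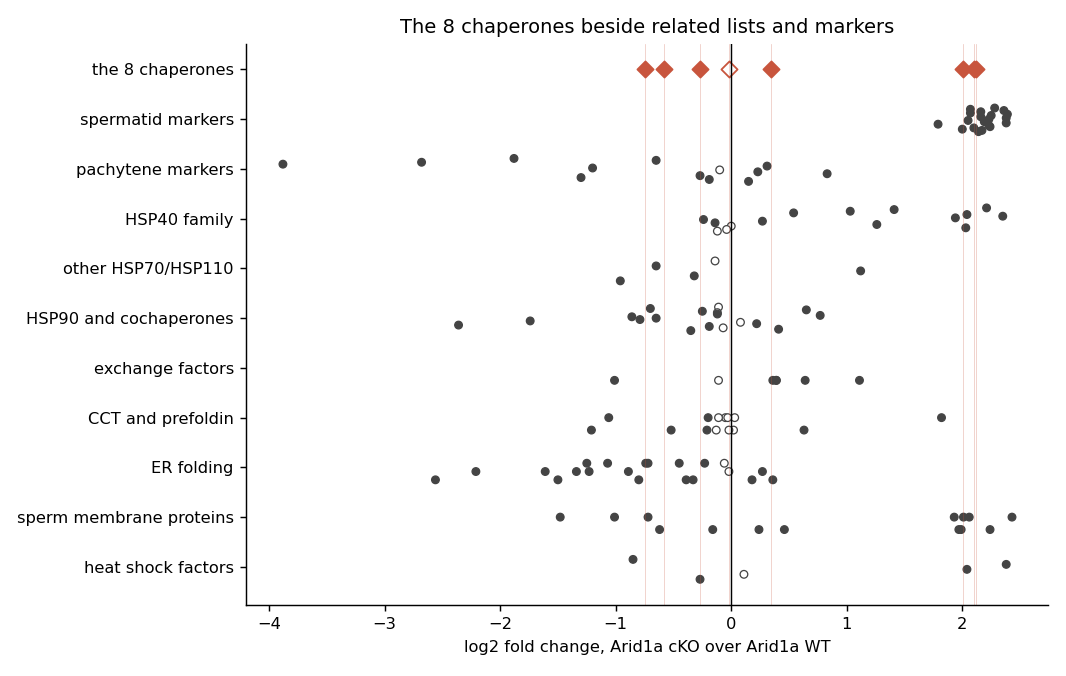
Log2 fold change, *Arid1a* cKO over *Arid1a* WT (x axis), of the 8 chaperones (red diamonds, with thin lines carried down) and of the genes of 10 lists with a mean log2 CPM of at least 1 (circles, 1 per gene, spread vertically for legibility). Open symbols did not pass an adjusted p of 0.05. *Hspa1l*, *Calr3* and *Pdilt* lie within the spermatid markers (1.79 to 2.39), and 16 of 21 genes for folding in the endoplasmic reticulum are lower.

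For each chaperone the 3 genes with the most similar log2 CPM over the 8 libraries were looked up among 9706 others with a mean log2 CPM of at least 3, as a description in which the genotype difference dominates. *Hspa1l* was most like *Kif2b*, *Clip4* and *Lyzl4* (Pearson r = 0.9999 each), *Calr3* like *Carlr*, *1700029H14Rik* and *Slfnl1* (0.9996 to 0.9998) and *Pdilt* like *Zfyve1*, *Fam71d* and *Lrp2bp* (0.9998 to 0.9999). *Clgn* was most like *Dnajb11* (r = 0.9993), a J-domain cochaperone of the same compartment, followed by *Rab8a* and *Abca14*. *Hspa2* was most like *Sugp2*, *Keap1* and *Wdr48* (0.9976 to 0.9987), *Hspa4l* like *Ccdc136*, *Smc5* and *Cyth1* (0.9981 to 0.9988) and *Hsp90aa1* like *1110051M20Rik*, *Atp6v1d* and *Cdc5l* (0.9979 to 0.9990). *Cct6b*, which did not pass the main test, was most like *Ttc39c*, *Rpl37a* and *Cmtm2b* (0.9689 to 0.9704). A correlation of 0.95 or more was reached by 2753 to 2789 genes for *Hspa1l*, *Calr3* and *Pdilt*, by 3093 for *Clgn*, by 811 to 1318 for *Hspa2*, *Hsp90aa1* and *Hspa4l*, and by 17 for *Cct6b*, so a high value is common here.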

How the data were processed

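RNA-seq of Sta-Put purified pachytene spermatocytes was analysed in 4 *Arid1a* WT and 4 *Arid1a* cKO samples, grouped by their labels. The authors quantified reads with Salmon and imported them with tximport on mm10, giving deposited estimated counts per gene, and deposited TPM per gene. Estimated counts were rounded. No deposited column lacked a sample. Genes with at least 10 summed counts were tested with edgeR 4.0.16 (TMM, quasi-likelihood, Benjamini-Hochberg adjusted p of 0.05 or less over all genes, R 4.3.3, with the SE taken from the log2 fold change and its F statistic). The test was run on simulated data in which 200 of 17319 genes changed 2-fold (85.8% recovered, 3.43% of calls false). Far fewer genes changed there than were called in the real data, so the scaling was not checked under so broad a change. Alternatives used DESeq2 1.42.0, limma 3.58.1 on log2(TPM + 1) or log2(TPM + 0.1), other scalings, filters and length offsets, the replicate number as a block and each library left out. Ratios were tested by exact permutation. Named genes were the 8 chaperones, their 7 relatives, *Arid1a*, in each other list up to 3 called genes with the largest rise and 3 with the largest fall (mean log2 CPM of at least 1), all called genes of the ADAM list, and the most similar genes. The chaperones and lists were chosen with earlier results of these data known. The annotation used for 31-base words and overlaps was GENCODE (GRCm38). Counts of 465 to 99816 stood behind each value of the chaperones, so counting error was small.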

Additional observations from a re-analysis of the deposited data

Results flagged for a closer look

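The log2 ratio of *Hspa1l* to *Hspa8* in *Arid1a* WT library 3 stood apart from the other *Arid1a* WT libraries. It was -0.65, against -0.84 to -0.81 in the others, and its gap to the nearest was 0.8291 of the range of the group, just above Dixon's critical value for 4 samples. Among the 48 groups of values examined for the chaperones, their relatives and *Arid1a*, chance alone would single out about 1 in 20, or 2.4, so 1 is within what chance gives. Without this library the ratio differed between genotypes by 2.45, and with it by 2.41.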

How the results depend on the processing

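Without any one library, *Cct6b* ranged from -0.07 to 0.05 and *Hsp90ab1* from -0.11 to 0.00. *Cct6b* was also at 0.01 in DESeq2, at 0.01 with DESeq2 size factors in edgeR and at 0.00 with filterByExpr, and was called lower at -0.11 without TMM, at -0.15 in limma on log2(TPM + 1), at -0.15 on log2(TPM + 0.1) and at -0.30 on TPM rescaled over the listed genes, an alternative added after seeing the data. Those scalings without TMM and with rescaled TPM moved the median gene to -0.12 and -0.13. The rescaled TPM also gave *Adam5* -0.05, *Hspb9* -0.02 and *Manf* -0.10, and *Msh4* and *Tbpl1*, at 0.16 and 0.07, did not pass there, nor did *Msh4* without TMM (0.21). *Cct6a* was at 0.03 in limma with either pseudocount (not passing) and was called higher at 0.12 with length offsets (adjusted p = 0.0366), and the log2 ratio of *Cct6b* to *Cct6a* was 0.19 higher on CPM (exact permutation p = 0.0286), where that of *Hspa4l* to *Hspa4* was 0.48. The other 7 chaperones kept direction and call in all alternatives, and the causes of the changes were not tested. With one library left out the exact test of a ratio cannot go below p = 0.0571, so none passed. The differences then ranged from 2.39 to 2.45 for *Hspa1l* to *Hspa8*, 0.79 to 0.82 for *Hspa4l* to *Hspa4*, -0.49 to -0.41 for *Hsp90aa1* to *Hsp90ab1*, 0.43 to 0.46 for *Clgn* to *Canx*, 2.33 to 2.45 for *Calr3* to *Calr*, 2.25 to 2.39 for *Pdilt* to *P4hb* and -0.21 to -0.12 for *Cct6b* to *Cct6a*. Deviations of same-numbered libraries from their group means correlated at 0.202, 0.042, 0.0944 and -0.0917 for numbers 1 to 4. The highest correlations with a library of another number were -0.0393, 0.0802, 0.116 and 0.18, so only number 1 was closest to its own number. With the replicate block 6429 genes were called higher and 6671 lower, against 6435 and 6613 without it.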

Other observations

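Heat shock factors, small heat shock proteins and mitochondrial chaperones were also measured. Of 6 heat shock factor genes, 3 were higher and 2 lower in *Arid1a* cKO, among them *Hsf3* and *Hsf4*, which were close to the limit of detection (mean log2 CPM of -1.86 and -2.48). *Hsfy2* rose by 2.38 and *Hsf2* by 2.04 on the log2 scale, whereas *Hsf1*, the main activator of the heat shock response, fell by 0.27. *Hsf2bp*, a meiotic recombination factor found as a partner of HSF2 and counted in the same list of 7 (median 0.11), fell by 0.85. Of 9 small heat shock protein genes, 3 were higher and 4 lower (median 0.25), with *Odf1*, an outer dense fibre gene that is also among the spermatid markers, at 2.05, *Hspb7* at 1.16 and *Hspb9* at 0.25 (not passing in limma on log2(TPM + 1), at 0.13, and at -0.02 on TPM rescaled over the listed genes), and with *Hspb1* at -1.77, *Hspb6* at -1.02 and *Hspb11* at -0.39. Of 7 mitochondrial chaperone genes, 3 were higher and 3 lower (median -0.07), with *Dnaja3* at 0.55, *Hspd1* at 0.49 and *Hspe1*, whose product caps the HSPD1 ring, at 0.42 (0.14 on TPM rescaled over the listed genes, not passing), and with *Grpel2* at -0.78, *Trap1* at -0.78 and *Grpel1* at -0.33.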
